A study of Mus musculus with 10 samples.

Results

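The genes described here are the 50 genes that license DNA replication origins and run the replication fork, followed in bulk RNA-seq of tumor-draining lymph nodes (TDLNs, here the inguinal nodes next to the tumor). They were taken by name, all 50 were found among the 33585 genes of the deposited tables, and all 50 were among the 13334 genes tested, which had a mean of at least 1 FPKM (sequenced fragments, divided by transcript length and by the mapped reads of the library). The list was chosen with earlier results of these data known. It holds 10 genes of origin licensing and its control, 12 of the replicative helicase, 9 of the polymerases, 6 of the sliding clamp and its loader, 4 of nucleotide supply, 3 of single-strand binding, 3 of Okazaki fragment joining and 3 of fork protection.

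The nodes came from female wild-type BALB/c mice, 6 weeks old, that carried tumors of 4T1, a mouse mammary carcinoma cell line grown here in a mammary fat pad on the right side. Every tumor was treated with microwave ablation (MWA) on day 10, so all animals of both groups were ablated and no unablated group enters the comparison. The MWA group then received PBS, as the study's methods state, and the MWA+2DG group received 2-deoxy-D-glucose (2DG), a glucose analogue that inhibits glycolysis, at 500 mg/kg by intraperitoneal injection. Injections were given every 2 days until the nodes were taken on day 15. There were 5 libraries in each group, 1 per mouse by the study's methods, while the sample labels give only the group and a number, so a p-value measures the spread between these libraries. The comparison asks how the node differs when glycolysis is inhibited after ablation.

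Before a cell copies its DNA, the origin recognition complex (ORC) marks origins, and Cdc6 and Cdt1 load the ring of Mcm2 to Mcm7 onto them. In S phase the ring is joined by Cdc45 and the GINS complex to form the moving helicase, primase and DNA polymerases follow it, and Pcna, a ring loaded by the replication factor C (RFC) complex, holds the polymerases on DNA. In a lymph node these genes are used by dividing lymphocytes, and many of them are transcribed under E2F factors as cells enter S phase. In a bulk library, fewer dividing cells and less RNA per dividing cell cannot be told apart.

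Most replication genes had slightly lower levels in the MWA+2DG group, down to -0.35 on the log2 scale for Rfc4. The log2 fold change (MWA+2DG minus MWA, on the log2(FPKM + 1) scale throughout) was below 0 for 47 of the 50 genes, where it was below 0 for 47.4% of all genes tested. Its median over the 50 genes was -0.18, against 0.01 over all genes tested. By the rule the study names, an unadjusted limma P below 0.05 with a log fold change beyond 0.25, read as log2, 8 of the 50 were lower and 0 were higher. These were Lig1, Rfc4, Gmnn, Mcm5, Mcm6, Tipin, Rrm1 and Rpa3. Of all genes tested, 1.87% were lower and 0.952% higher by that rule. Because the 50 genes were chosen with earlier results of these data known, their counts and median are no independent support. The study does not state the base of its logarithm, and with the threshold read on the natural log scale 0 of the 50 genes met it.

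None of the 50 genes passed the Benjamini-Hochberg adjustment over all genes tested in limma (smallest adjusted p 0.995), and the share of all genes that passed was 0%. The count was also 0 by limma-trend (smallest adjusted p of the 50 genes 0.996). By the Wilcoxon rank-sum test it was 0 too (smallest adjusted p 0.984). With 5 libraries a group, the smallest P of that test cannot pass the adjustment unless very many genes reach it. Its 0 therefore adds little. Without the adjustment 13 of the 50 had a P below 0.05, all of them lower, where 4.25% of all genes had such a P in either direction and 2.62% had it with a lower level. An exact permutation test of single genes over the 10 libraries, two-sided, gave 12 of the 50 a p below 0.05, all lower, where 4.45% of all genes tested had such a p in either direction and 2.6% had it with a lower mean. The smallest p this test can reach is 0.00794. In 4 genes, Mcm3, Mcm6, Pcna and Rfc4, every MWA+2DG library lay below every MWA library, against 0.51% of all genes tested. When every library was first rescaled to a summed FPKM of 1000000, 2 members met the study's rule, Gmnn and Rfc4, 5 had an unadjusted P below 0.05 in limma, and 0 were without overlap between the groups, so Mcm3, Mcm6, Pcna and Rfc4 all overlapped on that scale. For the P and overlap counts on that scale the shares over all genes were not taken, and the shares above belong to the values before rescaling. Over all genes that rescaling turned 249 lower and 127 higher genes into 159 lower and 328 higher, with a median of all genes of 0.07. The median of the 50 genes minus that of all genes was -0.19 before the rescaling and -0.20 after it.

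**Figure D1:**
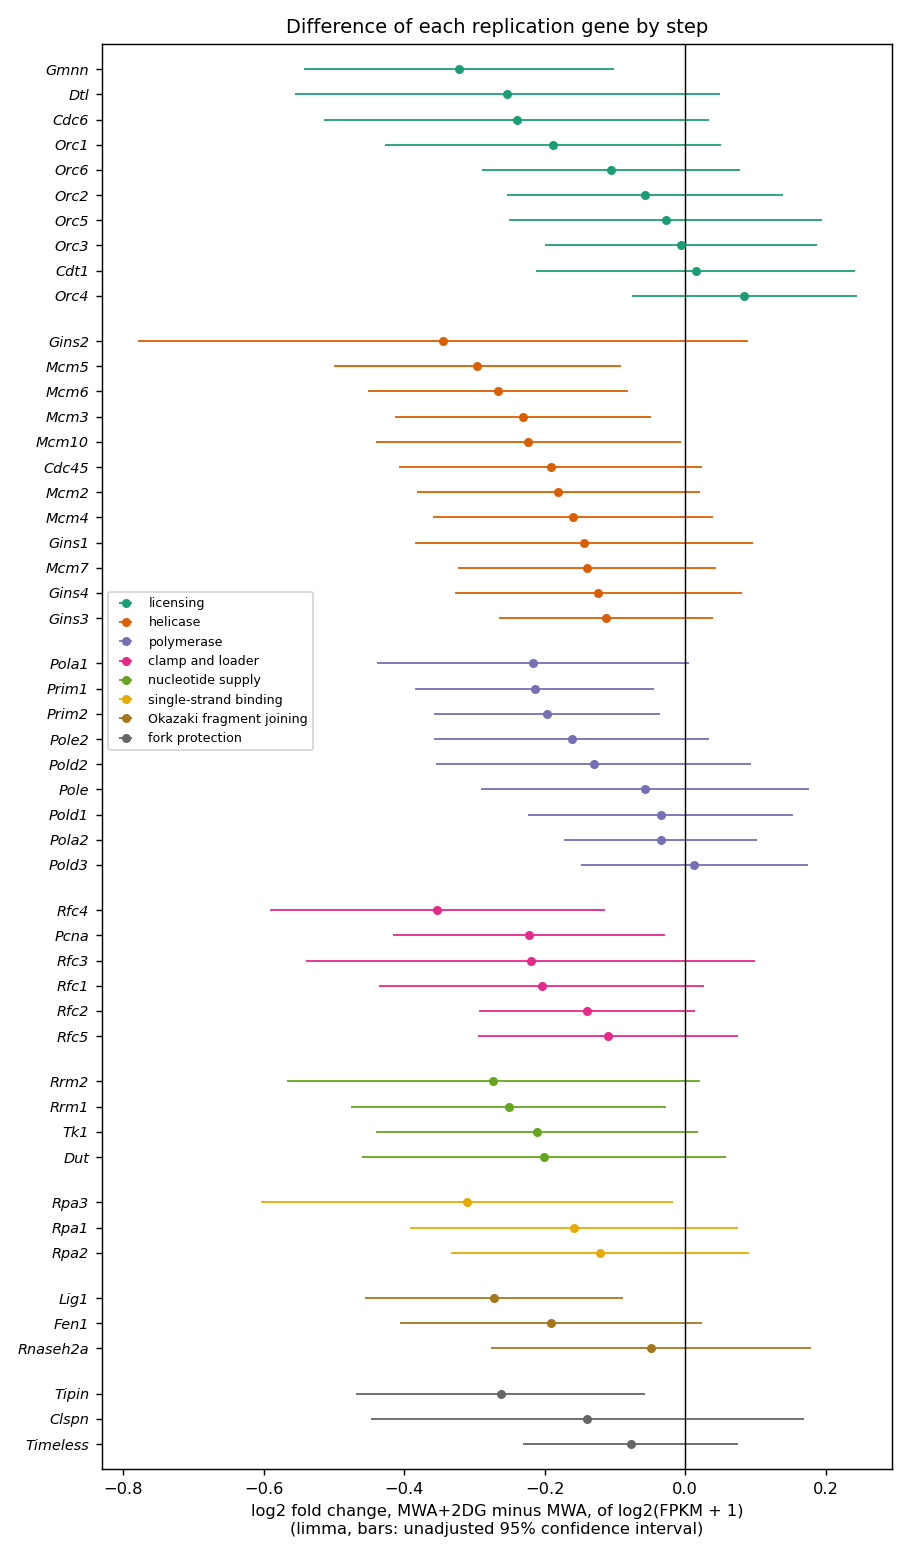
Log2 fold change (MWA+2DG minus MWA) of log2(FPKM + 1) for the 50 genes on the horizontal axis, grouped by step, with unadjusted 95% confidence intervals from limma over 5 libraries a group. The points of 47 genes lie left of 0, and the intervals of 13 genes lie wholly left of it.

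The libraries were not alike within the groups. MWA+2DG 5 had the lowest level of all 10 libraries for 30 of the 50 genes, while MWA+2DG 4 was the highest of its group for 30. In the MWA group, libraries 4 and 5 were the highest of the 10 for 18 and 19 genes. These ranks are on FPKM before rescaling. MWA 5 also had the largest summed FPKM over all genes, 359984, against 312143 (MWA+2DG 3) to 335701 (MWA 1) in the others. The part of these sums in the differences between libraries was not tested. The mean log2(FPKM + 1) over the 50 genes was 3.71, 3.71, 3.70, 3.80 and 3.82 in MWA libraries 1 to 5, and 3.57, 3.62, 3.56, 3.71 and 3.45 in MWA+2DG libraries 1 to 5. All MWA+2DG libraries except number 4 were below the whole MWA group. Left out one at a time, the libraries that moved the 8 genes by the study's rule most were MWA+2DG 4 (16 genes without it), MWA+2DG 5 (4 genes) and MWA 5 (4 genes), and without MWA 1 there were 12. Without MWA+2DG 4, Cdc6, Dtl, Fen1, Mcm10, Mcm3, Orc1, Pola1, Rrm2 and Tk1 joined the lower genes and Rpa3 left them. Without MWA+2DG 5, Rfc3 joined and Lig1, Mcm6, Rpa3, Rrm1 and Tipin left, and without MWA 5, Pola1 joined and Lig1, Mcm5, Rpa3, Rrm1 and Tipin left. Over all genes the lower ones by the rule numbered 315 without MWA+2DG 4, 176 without MWA+2DG 5, 201 without MWA 5 and 313 without MWA 1, against 249 with all libraries.

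The first principal component of all genes tested, with 36.4% of the variance, set replicates 1 and 2 of both groups apart from replicates 3 to 5 of both groups. Within replicates 1 and 2 the fold change was below 0 for 43 of the 50 genes, with a median of -0.11. Within replicates 3 to 5 it was below 0 for 46, with a median of -0.22. The median of all genes tested was 0.00397 and 0.00998 in these sets.

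**Figure D2:**
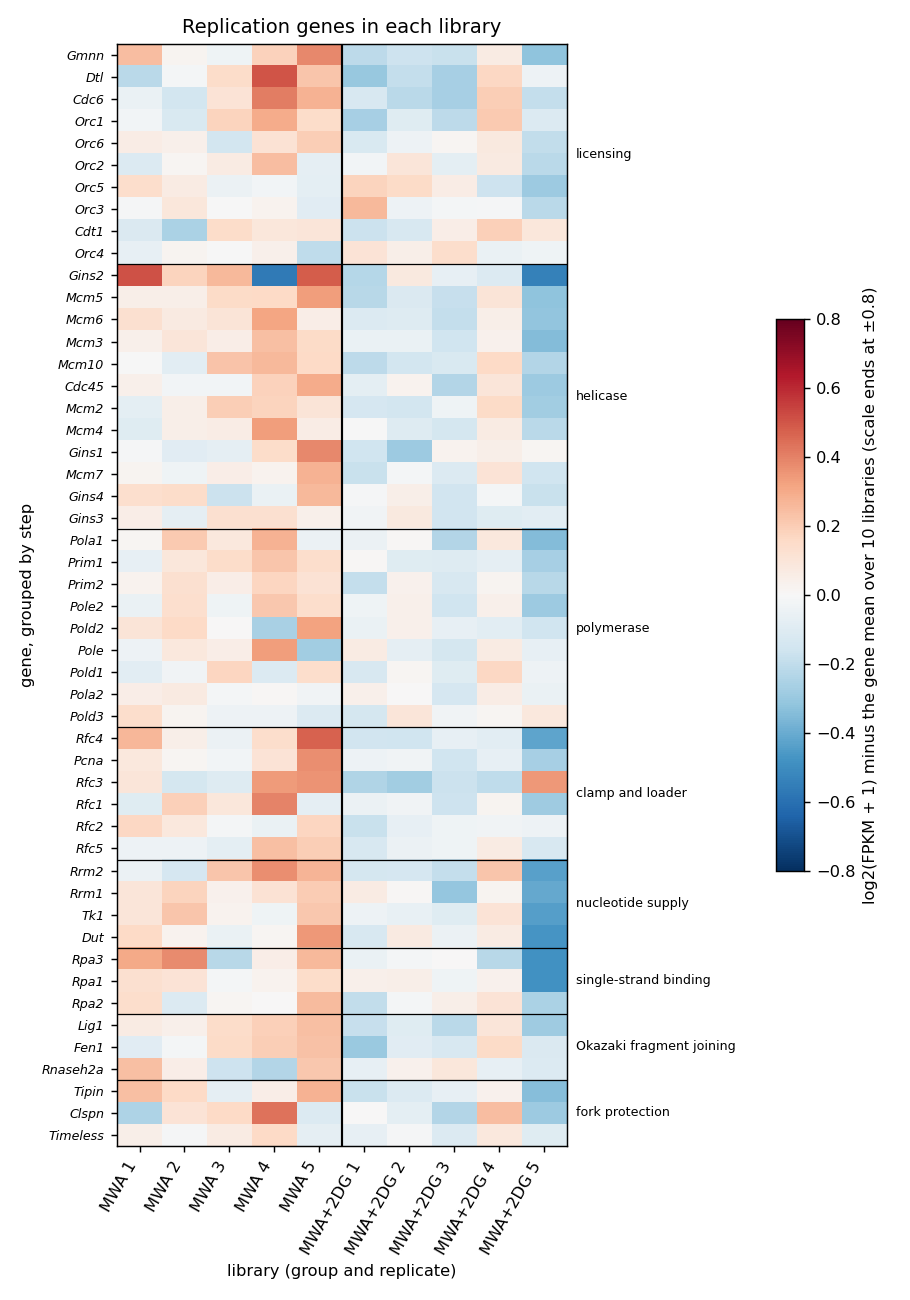
Each of the 50 genes (rows, grouped by step) in each of the 10 libraries (columns), as log2(FPKM + 1) minus the gene's mean over the 10 libraries, with red above and blue below that mean. MWA+2DG 5 is blue in most rows, and 30 of the 50 genes have their lowest level there.

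The promoters of these genes were read for E2F-type sites, because E2F factors are known regulators of S phase genes. The letters searched were TTCCCGC, the variant TTCGCGC, the variant TTGCCGC and the variant TTGGCGC on both strands, in the 250 bases before the start of each gene (RefSeq, GRCm38.p6). Of the 50 genes 41 had a promoter in the table, and 17 of them, 41.5%, held at least 1 match, against 9.01% of 27025 genes with a promoter and 16.4% of those among the genes tested. By step, matches were found for 5 of 9 licensing genes, 4 of 8 helicase genes, 2 of 7 polymerase genes, 1 of 5 clamp and loader genes, 2 of 4 nucleotide supply genes, 2 of 3 single-strand binding genes, 1 of 3 Okazaki fragment joining genes and 0 of 2 fork protection genes. With the 50 bases after the start included, 26 of the 41 held a match, 63.4%, against 10.9% of all genes with a promoter and 19.7% of those among the genes tested. The median log2 fold change was -0.22 over the 17 genes with a match and -0.15 over the 24 without, and 5 genes of each kind had an unadjusted P below 0.05 in limma. The promoters shown are those of the 3 genes of smallest P with a match before the start, with the matches in capitals, overlapping ones joined. Mcm5 is at chr8:75109259-75109508 on the plus strand, Mcm6 at chr1:128359706-128359955 on the minus strand and Prim1 at chr10:128014965-128015214 on the plus strand, each written 5′ to 3′ and ending at the base before the start.
Mcm5: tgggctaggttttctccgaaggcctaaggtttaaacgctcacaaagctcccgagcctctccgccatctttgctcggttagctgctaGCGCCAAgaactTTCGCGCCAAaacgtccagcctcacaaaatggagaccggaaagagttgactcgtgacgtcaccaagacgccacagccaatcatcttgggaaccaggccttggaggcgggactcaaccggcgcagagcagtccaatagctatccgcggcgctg
Mcm6: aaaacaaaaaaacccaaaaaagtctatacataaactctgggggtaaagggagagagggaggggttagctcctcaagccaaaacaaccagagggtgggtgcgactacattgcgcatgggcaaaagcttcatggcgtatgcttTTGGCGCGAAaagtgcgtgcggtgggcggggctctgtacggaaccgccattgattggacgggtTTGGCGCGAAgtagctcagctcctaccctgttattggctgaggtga
Prim1: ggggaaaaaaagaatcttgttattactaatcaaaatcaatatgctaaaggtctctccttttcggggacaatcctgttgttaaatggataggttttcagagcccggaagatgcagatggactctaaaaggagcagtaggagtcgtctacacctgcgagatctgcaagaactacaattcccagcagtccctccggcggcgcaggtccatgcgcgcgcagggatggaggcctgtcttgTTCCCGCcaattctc
Mcm5 and Mcm6 held 2 separate sites each, and Prim1 held 1. Counted from the RefSeq start, the first base of the Mcm5 sites lay 164 and 152 bases before the start, those of Mcm6 109 and 46 bases before it, and that of Prim1 15 bases before it. The first bases after the RefSeq start of Mcm5 and of Mcm6 were not found in a GENCODE transcript of the gene, while those of Prim1 were, so the distances for Mcm5 and Mcm6 rest on the RefSeq start alone. The sites of Mcm6 have the same 10 letters, on which matches of both strands overlap. A match is a run of letters and not a measured binding site, and the deposited tables hold no binding data.

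The helicase genes were all below 0, from -0.34 for Gins2 to -0.11 for Gins3, with a median of -0.19 over the 12 genes. Mcm5 and Mcm6 were lower by the study's rule, and Mcm3 and Mcm10 also had an unadjusted P below 0.05. Mcm2 to Mcm7 are the subunits of the ring that unwinds DNA. Mcm5, a subunit at the gate through which the ring opens on DNA, was at 45.7, 45.8, 49.3, 49.7 and 56.2 FPKM in MWA libraries 1 to 5 and at 37.8, 40.8, 38.9, 47.7 and 35.3 FPKM in MWA+2DG libraries 1 to 5. Only MWA+2DG 4 reached into the range of the MWA group. The means were 49.3 ± 4.26 and 40.1 ± 4.71 FPKM (SD, n = 5), with a log2 fold change of -0.30 (95% interval -0.50 to -0.09; limma unadjusted P = 0.00865, exact permutation p = 0.0238).

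Mcm6 was at 28.0, 26.9, 27.6, 32.0 and 26.5 FPKM in the MWA libraries and at 23.7, 23.8, 22.3, 26.5 and 20.3 FPKM in the MWA+2DG libraries, in the order 1 to 5 used from here on. The groups did not overlap, although the highest MWA+2DG library and the lowest MWA library were nearly equal. Its log2 fold change was -0.27 (95% interval -0.45 to -0.08; limma unadjusted P = 0.00889, exact permutation p = 0.00794). Mcm3 was at 40.6, 42.2, 40.9, 46.7 and 43.9 FPKM and at 37.9, 37.9, 35.2, 40.5 and 30.8 FPKM, again with every MWA+2DG library below the MWA group. Its log2 fold change was -0.23 (95% interval -0.41 to -0.05; limma unadjusted P = 0.0178, exact permutation p = 0.00794).

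The other ring subunits had means of 19.5 ± 1.55 and 17.1 ± 2.06 FPKM for Mcm2, 31.6 ± 3.69 and 28.1 ± 2.25 FPKM for Mcm4, and 35.2 ± 3.13 and 31.9 ± 2.78 FPKM for Mcm7 (MWA and MWA+2DG; SD, n = 5). Their log2 fold changes were -0.18, -0.16 and -0.14, with exact permutation p values of 0.0794, 0.0952 and 0.111. The order of the levels, per length, was Mcm5, Mcm3, Mcm7, Mcm4, Mcm6 and Mcm2 by the means over 10 libraries, from 44.7 to 18.3 FPKM. Mcm3 was above Mcm7, and Mcm6 above Mcm2, in 10 of 10 libraries. Mcm5 was above Mcm3 and Mcm4 above Mcm6 in 9 of 10, and Mcm7 above Mcm4 in 8 of 10, so these neighbours were less firmly ordered.

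**Figure D3:**
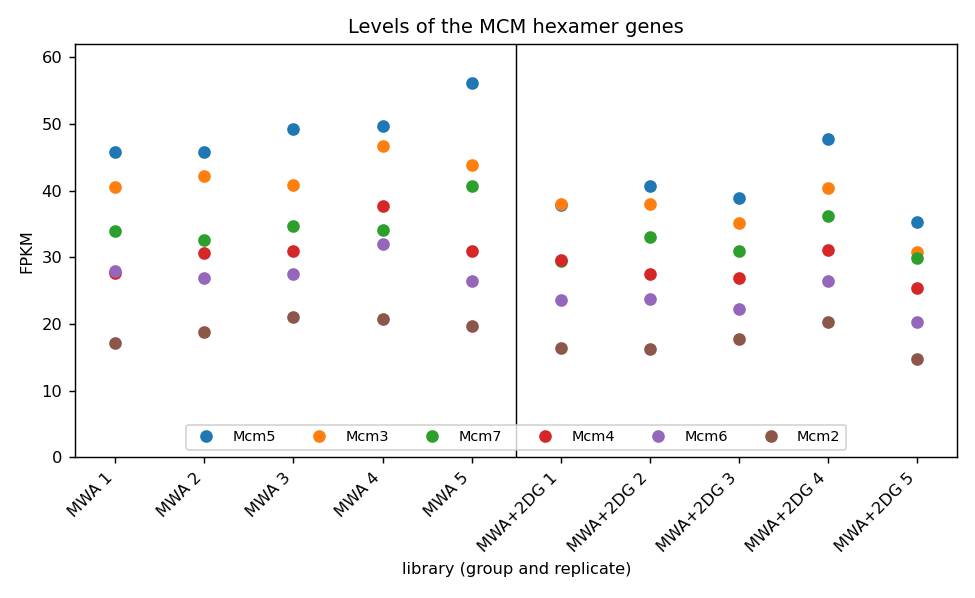
FPKM (vertical axis) of the 6 MCM ring genes in each of the 10 libraries, with the MWA libraries left and the MWA+2DG libraries right of the line. Mcm5 is the highest in 9 of 10 libraries and Mcm2 the lowest in all 10, and the MWA+2DG points of Mcm3 and Mcm6 all lie below their MWA points.

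Mcm10, which helps activate the loaded helicase, was at 3.69, 3.43, 4.50, 4.62 and 4.26 FPKM in the MWA libraries and at 3.06, 3.24, 3.31, 4.25 and 2.99 FPKM in the MWA+2DG libraries. MWA+2DG 4 lay within the MWA range and the other MWA+2DG libraries below it. The log2 fold change was -0.22 (95% interval -0.44 to -0.01; limma unadjusted P = 0.0447, exact permutation p = 0.0556). Cdc45, which joins the ring with GINS, had a log2 fold change of -0.19 (limma unadjusted P = 0.0766, exact permutation p = 0.0952).

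Among the GINS genes Gins2 had the largest difference and the widest interval of the helicase step. It was at 11.4, 8.89, 9.44, 4.90 and 11.2 FPKM in the MWA libraries and at 6.46, 8.22, 7.35, 7.08 and 5.01 FPKM in the MWA+2DG libraries. MWA 4 was the lowest of the 10 libraries, below the whole MWA+2DG group, and the other 4 MWA libraries lay above that group. Its log2 fold change was -0.34 with an interval of -0.78 to 0.09 (limma unadjusted P = 0.108, exact permutation p = 0.119). Without MWA 4 it was -0.53, and Gins2 then met the study's rule. Gins3 had the smallest difference of the step, with 5.91, 5.34, 6.28, 6.26 and 5.84 FPKM and 5.52, 6.02, 4.99, 5.23 and 5.29 FPKM, ranges that overlapped, and a log2 fold change of -0.11. Gins1 and Gins4 were at -0.14 and -0.12. Gins4 was the highest of the complex at 20.2 FPKM over the 10 libraries, above Gins2 in each, while Gins1 and Gins3, at 5.74 and 5.67 FPKM, did not differ in order beyond their spread.

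The licensing step had the smallest median difference, -0.08 over 10 genes, and 8 of them were below 0. Its genes were spread widely, from -0.32 for Gmnn to 0.08 for Orc4. The differences between steps were not tested. Gmnn, which encodes geminin, the inhibitor that binds Cdt1 and blocks a second round of loading, had the largest difference of the step and its highest level. It was at 19.5, 16.6, 15.9, 18.7 and 21.6 FPKM in the MWA libraries and at 14.0, 14.4, 14.3, 17.1 and 12.8 FPKM in the MWA+2DG libraries. Only MWA+2DG 4 overlapped the MWA group. On the log2 scale the difference was -0.32 (95% interval -0.54 to -0.10; limma unadjusted P = 0.00829, exact permutation p = 0.0238). Gmnn and Rfc4 met the study's rule in 10 of 10 fits that left out 1 library, while Mcm5 met it in 9, Mcm6 and Lig1 in 8, Tipin in 7, Rrm1 in 6 and Rpa3 in 5. These fits share most of their libraries, and the share of all genes that met the rule as often was not taken.

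Cdt1, the loading factor that geminin inhibits, was at 15.8 ± 1.94 FPKM in the MWA group and 16.0 ± 1.80 FPKM in the MWA+2DG group (SD, n = 5), with a log2 fold change of 0.01 (interval -0.21 to 0.24). The ratio of Gmnn to Cdt1, chosen after the values were seen, was 1.18 ± 0.177 and 0.915 ± 0.103 (SD, n = 5), with 2 of the 5 MWA+2DG libraries below all MWA libraries. Cdc6, the other loading factor, was at -0.24 on the log2 scale with an exact permutation p = 0.103. Dtl, part of the ubiquitin ligase that removes Cdt1 in S phase, was at -0.25 with exact permutation p = 0.119, from means of 2.14 ± 0.590 and 1.61 ± 0.361 FPKM. With the replicate set (1 and 2, or 3 to 5) as a term in limma, Dtl met the study's rule.

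The ORC genes were close to 0, with a median of -0.04 over 6 genes and -0.02 over Orc2 to Orc5. Orc4 had the highest fold change of all 50 genes, 0.08 (interval -0.08 to 0.24), from 5.78, 6.21, 6.10, 6.31 and 5.17 FPKM in the MWA libraries and 6.67, 6.34, 6.83, 5.85 and 5.93 FPKM in the MWA+2DG libraries. The ranges overlapped. Orc2, Orc3 and Orc5 were at -0.06, -0.01 and -0.03, and their intervals ended below at -0.25, -0.20 and -0.25, so a decrease as large as the median of the 50 genes lies inside each of them. These 3 genes were above 0 after rescaling to 1000000. Orc1, the subunit whose level is regulated through the cell cycle, was the lowest of the complex at 2.24 FPKM over 10 libraries and stood at -0.19 on the log2 scale (exact permutation p = 0.127). Orc6 was at -0.11.

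The polymerase step had a median of -0.13 over 9 genes, and 8 of them were below 0. The genes of polymerase alpha and primase, the complex that starts each new strand with an RNA primer, had a median of -0.21 over 4 genes. Prim1, the catalytic primase subunit, was at 9.08, 10.3, 10.7, 11.3 and 10.7 FPKM in the MWA libraries and at 9.65, 8.87, 8.83, 9.04 and 7.78 FPKM in the MWA+2DG libraries. The lowest MWA library, number 1, lay within the MWA+2DG range, and the other 4 lay above that group. Its log2 fold change was -0.21 (95% interval -0.38 to -0.04; limma unadjusted P = 0.0183, exact permutation p = 0.0159). Prim2, the large primase subunit, was at 3.61, 3.95, 3.70, 4.09 and 3.91 FPKM and at 2.97, 3.64, 3.14, 3.59 and 2.88 FPKM. The groups overlapped slightly, with a log2 fold change of -0.20 (interval -0.36 to -0.04; limma unadjusted P = 0.0208, exact permutation p = 0.0159).

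Pola1, the catalytic subunit of polymerase alpha, had the lowest fold change of the step, -0.22 (interval -0.44 to 0.01; limma unadjusted P = 0.0554, exact permutation p = 0.0635). It was at 3.93, 4.64, 4.18, 4.93 and 3.73 FPKM in the MWA libraries and 3.72, 3.91, 3.14, 4.18 and 2.84 FPKM in the MWA+2DG libraries, and the groups overlapped. Pola2, its second subunit, was at -0.04, with an interval of -0.17 to 0.10.

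The polymerase delta genes, which serve mainly the lagging strand, had a median of -0.04 over 3 genes. Pold1, its catalytic subunit and the highest gene of the step, was at 27.1, 28.2, 32.6, 26.6 and 31.8 FPKM in the MWA libraries and at 26.2, 29.1, 26.8, 32.5 and 28.0 FPKM in the MWA+2DG libraries. The ranges overlapped almost fully, with a log2 fold change of -0.04 (interval -0.22 to 0.15). Pold3 had the highest fold change of the step, 0.01 (interval -0.15 to 0.17), from 12.6, 11.6, 11.0, 11.0 and 10.5 FPKM and 10.2, 12.3, 11.1, 11.5 and 12.1 FPKM. Pold2 was at -0.13. Pole and Pole2, of polymerase epsilon, which serves the leading strand, were at -0.06 and -0.16, with exact permutation p = 0.524 and 0.0714.

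All 6 genes of the clamp and its loader were below 0, with a median of -0.21. Pcna, the clamp itself, was the highest of the 50 genes at 94.3 FPKM over the 10 libraries. It was at 99.4, 94.7, 92.2, 101 and 122 FPKM in the MWA libraries and at 91.1, 91.8, 83.9, 89.4 and 77.9 FPKM in the MWA+2DG libraries, and the groups did not overlap. The log2 fold change was -0.22 (95% interval -0.42 to -0.03; limma unadjusted P = 0.0283, exact permutation p = 0.00794), short of the 0.25 that the study's rule asks for.

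Rfc4, a small subunit of the clamp loader, had the lowest fold change of all 50 genes. It was at 18.3, 15.6, 14.6, 16.7 and 21.3 FPKM in the MWA libraries and at 13.5, 13.4, 14.4, 14.1 and 11.0 FPKM in the MWA+2DG libraries, without overlap. The means were 17.3 ± 2.63 and 13.3 ± 1.34 FPKM (SD, n = 5), with a log2 fold change of -0.35 (95% interval -0.59 to -0.11; limma unadjusted P = 0.00778, exact permutation p = 0.00794). Rfc5, with the smallest difference of the step, was at 10.6, 10.6, 10.3, 13.1 and 12.7 FPKM and 9.88, 10.6, 10.6, 11.5 and 9.88 FPKM, overlapping, with a log2 fold change of -0.11. Rfc1, Rfc2 and Rfc3 were at -0.20, -0.14 and -0.22, with exact permutation p = 0.0952, 0.0476 and 0.183. The interval of Rfc3, -0.54 to 0.10, was the widest of the step, and its level in MWA+2DG 5 was 13.7 FPKM against at most 9.26 FPKM in the rest of its group.

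The nucleotide supply genes had the lowest median of the steps, -0.23 over 4 genes, all below 0. Rrm1 and Rrm2 encode the large and small subunits of ribonucleotide reductase, which makes deoxynucleotides. Rrm1 was at 12.4, 13.2, 11.9, 12.6 and 13.5 FPKM in the MWA libraries and at 12.1, 11.6, 9.15, 11.8 and 8.46 FPKM in the MWA+2DG libraries. MWA+2DG 3 and 5 lay well below the MWA group, MWA+2DG 1 lay inside its range, and numbers 2 and 4 just below it. On the log2 scale the difference was -0.25 (95% interval -0.48 to -0.03; limma unadjusted P = 0.0316, exact permutation p = 0.0159).

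Rrm2, the highest gene of the step, was at 31.3, 29.5, 38.0, 42.3 and 39.4 FPKM in the MWA libraries and at 29.3, 29.4, 28.3, 37.9 and 23.7 FPKM in the MWA+2DG libraries. The groups overlapped, and MWA 1 and 2 lay below the other MWA libraries. Its log2 fold change was -0.27 (interval -0.57 to 0.02; limma unadjusted P = 0.0652, exact permutation p = 0.0556). It was -0.05 within replicates 1 and 2 and -0.42 within replicates 3 to 5. Dut, which removes dUTP, was at 26.8, 24.3, 22.9, 24.1 and 30.6 FPKM and 21.8, 25.2, 23.1, 25.0 and 16.9 FPKM, overlapping, and at -0.20 on the log2 scale (exact permutation p = 0.143). Tk1, the thymidine kinase of the salvage pathway, was at -0.21 (exact permutation p = 0.0635).

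The 3 subunits of replication protein A, which coats single-stranded DNA, were all below 0. Rpa3 was at 22.1, 23.4, 15.0, 18.4 and 21.4 FPKM in the MWA libraries and at 17.0, 17.5, 17.7, 15.0 and 12.4 FPKM in the MWA+2DG libraries. MWA 3 lay among the MWA+2DG libraries and the other 4 above them. The log2 fold change was -0.31 (95% interval -0.60 to -0.02; limma unadjusted P = 0.0395, exact permutation p = 0.0556). Rpa1, the large subunit and the highest of the complex, was at 35.7, 35.1, 32.2, 33.2 and 36.0 FPKM and 33.5, 33.6, 31.8, 33.3 and 22.9 FPKM. MWA+2DG 5 was far below the rest, and the log2 fold change was -0.16 (interval -0.39 to 0.08). Rpa2 was at 17.5, 14.5, 16.0, 15.8 and 19.0 FPKM and 13.6, 15.6, 16.3, 17.1 and 13.1 FPKM, with overlapping groups and a log2 fold change of -0.12.

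Among the genes that join Okazaki fragments, Lig1, the ligase that seals them, had the smallest unadjusted P of all 50 genes. It was at 22.4, 22.0, 23.7, 24.5 and 25.4 FPKM in the MWA libraries and at 18.7, 19.9, 18.2, 22.9 and 17.4 FPKM in the MWA+2DG libraries, and only MWA+2DG 4 reached the MWA range. On the log2 scale the difference was -0.27 (95% interval -0.46 to -0.09; limma unadjusted P = 0.00762, exact permutation p = 0.0238). Fen1, the flap nuclease and the highest gene of the step, was at 23.8, 25.1, 28.3, 29.3 and 30.0 FPKM and 20.5, 23.8, 23.1, 28.4 and 23.3 FPKM, with overlap. Its log2 fold change was -0.19 (exact permutation p = 0.0714). Rnaseh2a, which helps remove RNA from DNA, was at 9.35, 8.08, 6.81, 6.45 and 9.17 FPKM and 7.34, 7.97, 8.29, 7.35 and 7.10 FPKM, with a log2 fold change of -0.05 that was above 0 after rescaling to 1000000.

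Tipin, Timeless and Clspn form a complex that steadies the moving fork and signals when it stalls. Tipin was at 18.2, 17.1, 14.5, 15.9 and 18.8 FPKM in the MWA libraries and at 13.4, 14.1, 14.5, 15.7 and 11.9 FPKM in the MWA+2DG libraries, with MWA 3 inside the MWA+2DG range and the other 4 MWA libraries above it. The log2 fold change was -0.26 (95% interval -0.47 to -0.06; limma unadjusted P = 0.0169, exact permutation p = 0.0238). Its partner Timeless was at 6.40, 6.10, 6.50, 6.99 and 5.80 FPKM and 5.83, 6.11, 5.63, 6.59 and 5.67 FPKM, overlapping, with a log2 fold change of -0.08 (interval -0.23 to 0.07). Clspn was at -0.14 (exact permutation p = 0.373).

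**Figure D4:**
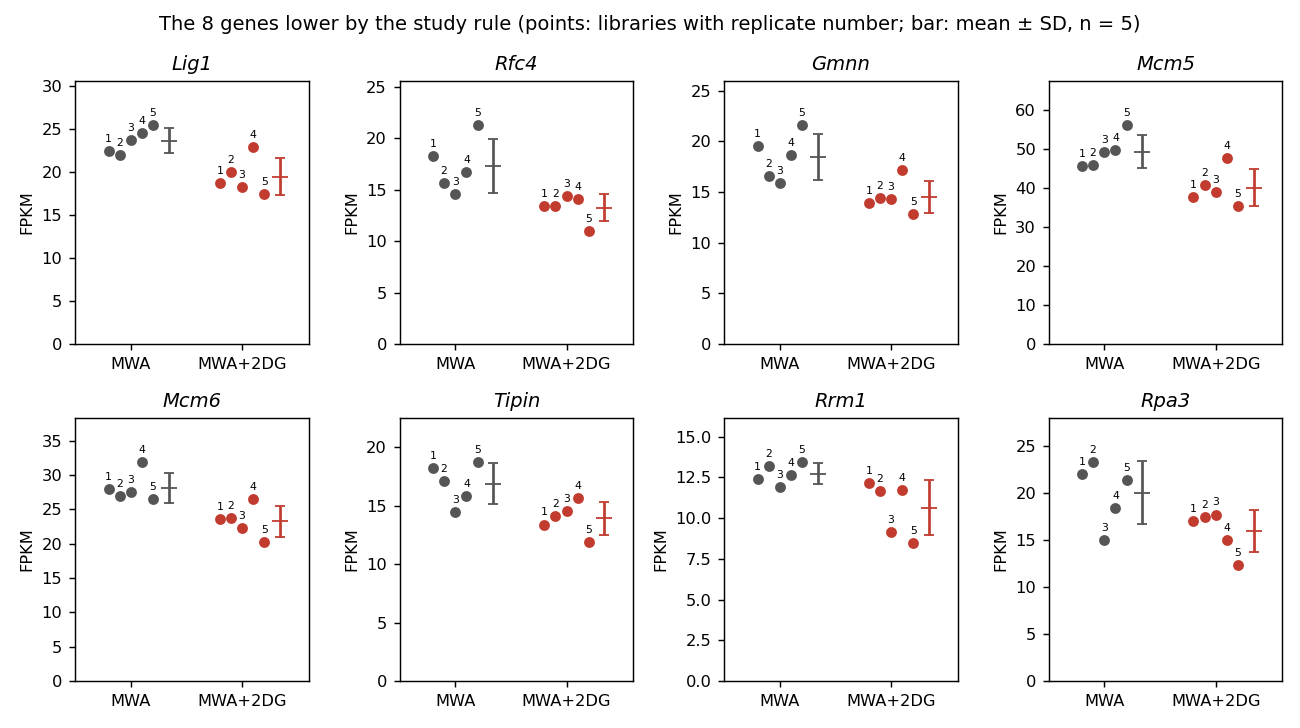
FPKM of the 8 genes lower by the study's rule, 1 panel a gene with the vertical axis from 0, points for the libraries with their replicate numbers and bars for the mean ± SD (n = 5). Rfc4 and Mcm6 are without overlap, and MWA+2DG 4 is the highest of its group in Lig1, Gmnn, Mcm5, Mcm6 and Tipin.

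Other lists of cell cycle genes, chosen with earlier results of these data known, were read beside these. Of all genes tested, 1.87% were lower and 0.952% higher by the study's rule. Of 37 other replication genes, 36 were tested, 33 were below 0, 2 were lower by the study's rule and 0 higher, with a median of -0.13. The 3 of smallest P were the histone chaperone gene Asf1b at 27.5 ± 3.49 and 20.6 ± 3.20 FPKM (log2 fold change -0.40, exact permutation p = 0.0159), Uhrf1, which brings DNA methylation to new DNA, at -0.32 (exact permutation p = 0.0317), and Pole3, a polymerase epsilon subunit, at -0.18 (exact permutation p = 0.00794). Of 24 regulators of the step from G1 to S phase, 22 were tested, 12 were below 0, and the median was -0.03. Cdkn1b, the cell cycle inhibitor p27, was higher by the study's rule, at 27.6 ± 1.84 and 33.2 ± 3.99 FPKM (SD, n = 5; log2 fold change 0.25, limma unadjusted P = 0.0177, exact permutation p = 0.0159). Tfdp1, the partner of E2F factors, was at -0.23 (exact permutation p = 0.0238) and Ccne2, cyclin E2, at -0.27 (exact permutation p = 0.143). All 25 mitosis genes were below 0, and 16 were lower by the study's rule, with a median of -0.28. The 3 of smallest P were the mitotic kinase Cdk1 (-0.38), the cyclin Ccnb2 (-0.44) and the kinesin Kif2c (-0.34), with exact permutation p values of 0.00794, 0.0159 and 0.0238. The difference between the mitosis genes and the replication genes was not tested.

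Markers of germinal centre B cells, which divide fast in a reacting node, were also lower in the MWA+2DG group. All 9 were below 0, and their median log2 fold change was -0.57. By the study's rule 7 were lower, where 1.87% of all genes tested were. This list, like the other marker lists, was chosen with earlier results of these data known, so its counts are no independent support. Their summed level ranged from 166 to 282 FPKM in the MWA group and from 108 to 177 FPKM in the MWA+2DG group. The lowest library for both the summed germinal centre markers and the mean of the 50 genes was MWA+2DG 5. MWA 1 had a summed germinal centre level of 166 FPKM, inside the MWA+2DG range, and a mean over the 50 genes of 3.71, while MWA+2DG 4 was also at 3.71 and the other 4 MWA+2DG libraries were lower. The part of these cells in the lower replication genes was not tested.

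Among the markers of other cells, all 8 B cell genes were below 0 with a median of -0.09 and 0 lower by the study's rule. Their summed level was 1478 to 1659 FPKM in the MWA group and 1364 to 1600 FPKM in the MWA+2DG group. All 10 T cell genes were above 0 with a median of 0.15, and 1, Cd8a, was higher by the study's rule. Their summed level was 756 to 1339 FPKM and 808 to 1261 FPKM in these groups, so RNA of both lineages was present in every library. These sums do not measure the share of either cell type. Of 6 plasma cell genes tested, 2 were lower by the study's rule, Xbp1 and Mzb1, with a median of -0.30 and summed levels of 320 to 821 FPKM and 244 to 505 FPKM. Macrophage and dendritic cell genes had a median of -0.03 with 1 of 7 lower by the rule, and stroma and endothelium genes a median of 0.02 with 0 of 7. Of 6 epithelium and tumor cell genes, 4 had a mean below 1 FPKM, and the summed level was 2.34 to 6.28 FPKM and 2.28 to 13.1 FPKM, highest in MWA+2DG 5. Of 6 erythroid genes 4 were tested and 0 met the rule, with summed levels of 22.6 to 65.6 FPKM and 16.7 to 85.3 FPKM. No listed marker was at 0 in all libraries. The part of any of these cells in the result was not tested.

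**Figure D5:**
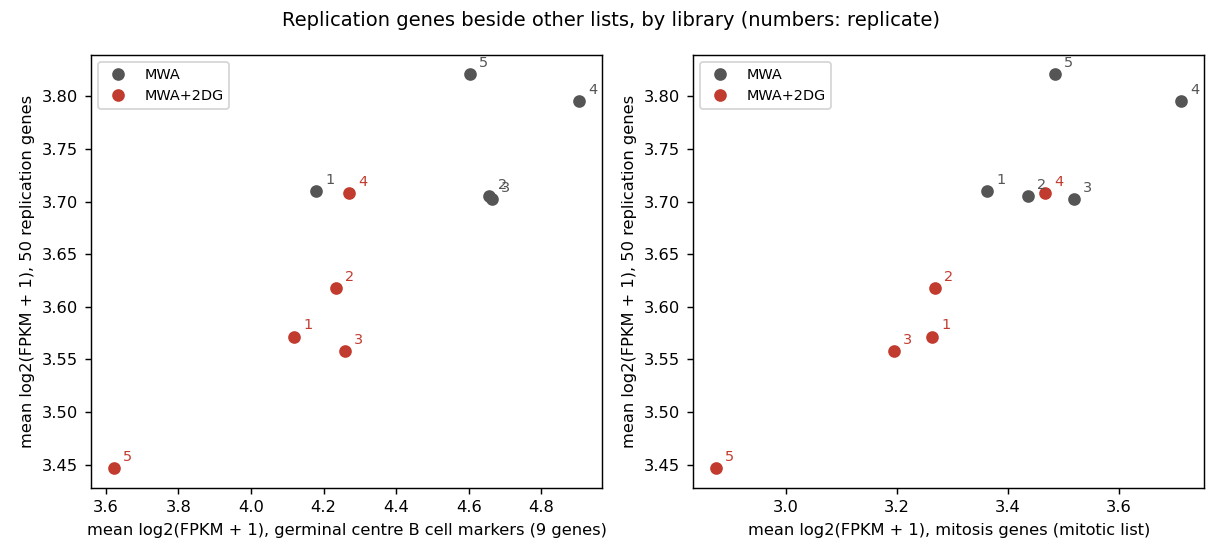
Mean log2(FPKM + 1) of the 50 replication genes (vertical axes) beside that of 9 germinal centre B cell markers (left) and of 25 mitosis genes (right), 1 point a library with its replicate number. MWA+2DG 5 is lowest on every axis, and MWA+2DG 4 lies at the level of MWA 1 to 3 on the vertical axes.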

How the data were processed

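RNA-seq of lymph nodes in 10 libraries was read from the deposited FPKM tables, 1 per library. The authors computed FPKM with StringTie and ballgown after mapping with HISAT2, and the submitters' processing notes name cutadapt 1.9, HISAT2 2.0.4, UMI-tools, StringTie 1.3.4d and mm9. FPKM is divided by length and mapped reads and holds no counts, so the depth and counting error are unknown. Per the labels the adapters carried molecular identifiers, and their use in the quantification, the handling of strand, and that of reads shared with pseudogene copies were stated nowhere in the sources used. Symbols matched 33541 of 33643 identifiers, and 57 shared symbols were summed. The test ran over genes averaging 1 FPKM or more, on log2(FPKM + 1), which understates changes of low genes, with limma 3.58.1 (R 4.3.3; lmFit, eBayes, no covariate) and Benjamini-Hochberg adjustment. At most 0.0149% of nonzero values were equal in any pair of libraries. Single genes were compared by two-sided exact permutation tests over every split of the libraries (Python 3.11.15, numpy 2.4.6). The fit was tested on simulated data. Values in every library are given for members with an unadjusted P below 0.05, those of highest level and those of largest and smallest fold change in each step; other lists are shown by their 3 genes of smallest P. Members and lists were chosen with earlier results of these data known. Promoter windows came from RefSeq (GRCm38.p6), not from the authors' mm9, and 41 of 49 windows of the members matched a transcript of the gene on the same strand and 0 on the opposite strand. No amino acid sequences were used here. Alternatives were a pseudocount of 0.1, no filter, a mean of at least 5 FPKM, limma-trend, rescaling, median ratio scaling, the Wilcoxon rank-sum test, quantile normalization, a replicate block, the replicate set as a term, the natural log reading of the threshold, and leaving out each library. The values within replicates 1 and 2 and within replicates 3 to 5 were added after seeing the data.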

Additional observations from a re-analysis of the deposited data

Results flagged for a closer look

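In 7 of 100 groups of 5 libraries (50 genes in each group), 1 library stood apart from the other 4 by Dixon's criterion, which chance alone meets in about 5% of groups. The helicase step held Mcm6 in MWA 4 at 32.0 FPKM (next highest 28.0), Mcm7 in MWA 5 at 40.6 FPKM (next 34.6) and Mcm10 in MWA+2DG 4 at 4.25 FPKM (next 3.31). The licensing factor Cdc6 was at 5.31 FPKM in MWA+2DG 4, with the next library of that group at 4.04 FPKM. The clamp loader genes Rfc2 and Rfc3 stood apart in MWA+2DG 1 (19.6 FPKM, the lowest, next 21.3) and in MWA+2DG 5 (13.7 FPKM, the highest, next 9.26). Rpa1 was lowest in MWA+2DG 5 at 22.9 FPKM, with the next library at 31.8 FPKM.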

How the results depend on the processing

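Over the alternatives, 41 of the 50 genes kept the sign of their fold change. After rescaling to 1000000 the sign turned for Orc2 (0.00146), Orc3 (0.0542), Orc5 (0.0265), Pola2 (0.0225), Pold1 (0.0273) and Rnaseh2a (0.0102), 2 members met the study's rule, 5 had an unadjusted P below 0.05, 0 were without overlap, and 159 genes were lower and 328 higher by the rule in all. The shares of all genes with such a P or without overlap were not taken after rescaling. Leaving out 1 library at a time gave -0.0471 to 0.0600 for Cdt1, -0.0721 to 0.0478 for Orc3, -0.0756 to 0.0421 for Orc5, -0.112 to 0.00626 for Rnaseh2a, -0.0816 to 0.0041 for Pold1, -0.135 to 0.0187 for Pole and -0.0131 to 0.0489 for Pold3. The same fits gave 4 to 16 members by the study's rule, with 176 to 315 lower and 82 to 222 higher genes in all. They also gave 10 to 21 members with an unadjusted P below 0.05, 4 to 10 without overlap and 11 to 20 with an exact permutation p below 0.05. For these last counts the shares over all genes were not taken. Non-overlap is reached more easily with 1 library fewer, so they cannot be set against the shares given for all 10 libraries. The highest member counts were those without MWA+2DG 4. With a mean of at least 5 FPKM, which keeps 40 members, 161 genes were lower and 69 higher, and the polymerase median was -0.0352. The Wilcoxon rank-sum test gave 143 lower and 67 higher genes. With the threshold on the natural log scale (0.361 on log2), 0 members, 140 lower and 39 higher genes remained by the rule. The cause of these shifts was not tested. The correlations gave no clear pairing of the libraries by replicate number. Same-numbered libraries correlated at 0.331, 0.501, 0.110, 0.0334 and 0.151 for numbers 1 to 5, and only number 2 correlated best with its own number. Such correlations cannot show whether the libraries were handled in pairs, and the labels do not say. With the replicate block 9 members met the rule (Dtl and Rrm2 joined, Rpa3 left). In all, 285 genes were then lower and 164 higher, against 249 and 127 without the block. In that fit 18 members had an unadjusted P below 0.05, and the share of all genes with such a P was not taken. With FPKM and no counts, differences of low genes cannot be weighed against depth.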
